A study of Equus asinus with 12 samples.

Results

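Mitochondrial complex I is the entry point of the respiratory chain: it takes electrons from NADH, hands them to ubiquinone and pumps protons across the inner mitochondrial membrane. It is built from conserved core subunits, which hold the flavin, the iron-sulfur clusters and the quinone site, and from supernumerary subunits that surround the core. Assembly factors help to build the complex and leave it, so they are not found in the finished enzyme. In skeletal muscle the complex supplies much of the ATP of sustained contraction, and oxidative fibres hold more mitochondria than glycolytic fibres.

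The nuclear genes described here are those whose names begin with NDUF in the deposited table of donkey muscle transcripts. For a name with several rows, the row with the highest mean was taken. This gave 46 genes of 27084 loci, of which 39 (NDUFA, NDUFB, NDUFC, NDUFS and NDUFV) were named as subunits and 7 (NDUFAF) as assembly factors. NDUFAF2 had 2 rows and NDUFAF6 had 4, and the other 44 genes had 1 row each. The mitochondrially encoded subunits were not analysed here. A locus was tested when it reached 1 FPKM (fragments per kilobase of transcript, scaled to library depth) in at least 3 of 12 libraries. That left 12408 loci, with all 39 subunits and 6 of the 7 assembly factors among them. NDUFAF2 was not among them.

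RNA-seq was performed on the Dezhou donkey (Equus asinus), in 2 strains named Wutou and Sanfen and in 2 muscles, the gluteal muscle of the hip and the longissimus dorsi of the back. The 4 groups were Wutou gluteal, Wutou longissimus, Sanfen gluteal and Sanfen longissimus, with 3 libraries each. All samples were from animals aged 24 months, and no treatment is named. The design text counts 6 donkeys. Which libraries share an animal is not labelled, and p-values therefore measure the spread between libraries of a group.

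The number of reads behind each library is unknown, and values carry no counting interval. Summed FPKM was 214564 to 319767 per library, with 43.8% to 56.5% of that in the top 10 loci. Fibre markers were abundant in every library, at 6624 to 20169 FPKM summed over 9 fast fibre genes and 2490 to 7439 over 8 slow fibre genes. Of the fast fibre genes, 2 (TNNT3 and PVALB) were listed at 0 in each of 2 libraries and 1 (TNNT3) in 1 further library. Neither was above 5.43 FPKM in any library, and both enter every count and median of fast fibre genes below. Summed markers of other cell types were lower, at 9.33 to 38.3 FPKM for adipocytes (6 genes), 86.3 to 197 for fibroblasts and tendon (7 genes), 41.6 to 76.7 for endothelium (5 genes) and 2.65 to 8.27 for blood and immune cells (4 genes). These sums cover measured genes only. The fibre genes MYH1, MYH4 and MYH7, the tendon gene SCX, and CD68, HBB and HBA of blood and immune cells were listed but not found by name. All 7 comparisons below were tested with limma on log2(FPKM + 1). P-values were adjusted by Benjamini-Hochberg over the 12408 loci, and a call means an adjusted p under 0.05. On this scale, differences of genes near 0 are understated. In bulk tissue, fewer cells of a type and less RNA per cell cannot be told apart.

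Subunit transcripts were abundant and assembly factor transcripts were not. The median of the mean FPKM was 35.1 for the 39 subunits and 1.38 for the 7 assembly factors, against 1.89 for all loci tested. Of the subunits, 31 had a mean above 20 FPKM. In 35 of 39 the mean was above 12.8 FPKM, the mean of NDUFAF3, the most abundant assembly factor. In 21 subunits the lowest library was above 20.5 FPKM, the highest value of any assembly factor in any library. The ratio of the subunit median to the assembly factor median was 14.7 to 30.7 over the 12 libraries. Taken over the means, this ratio was 25.4, or 15.7 when all rows of a name were summed, which adds the further rows of NDUFAF2 and NDUFAF6.

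**Figure D1:**
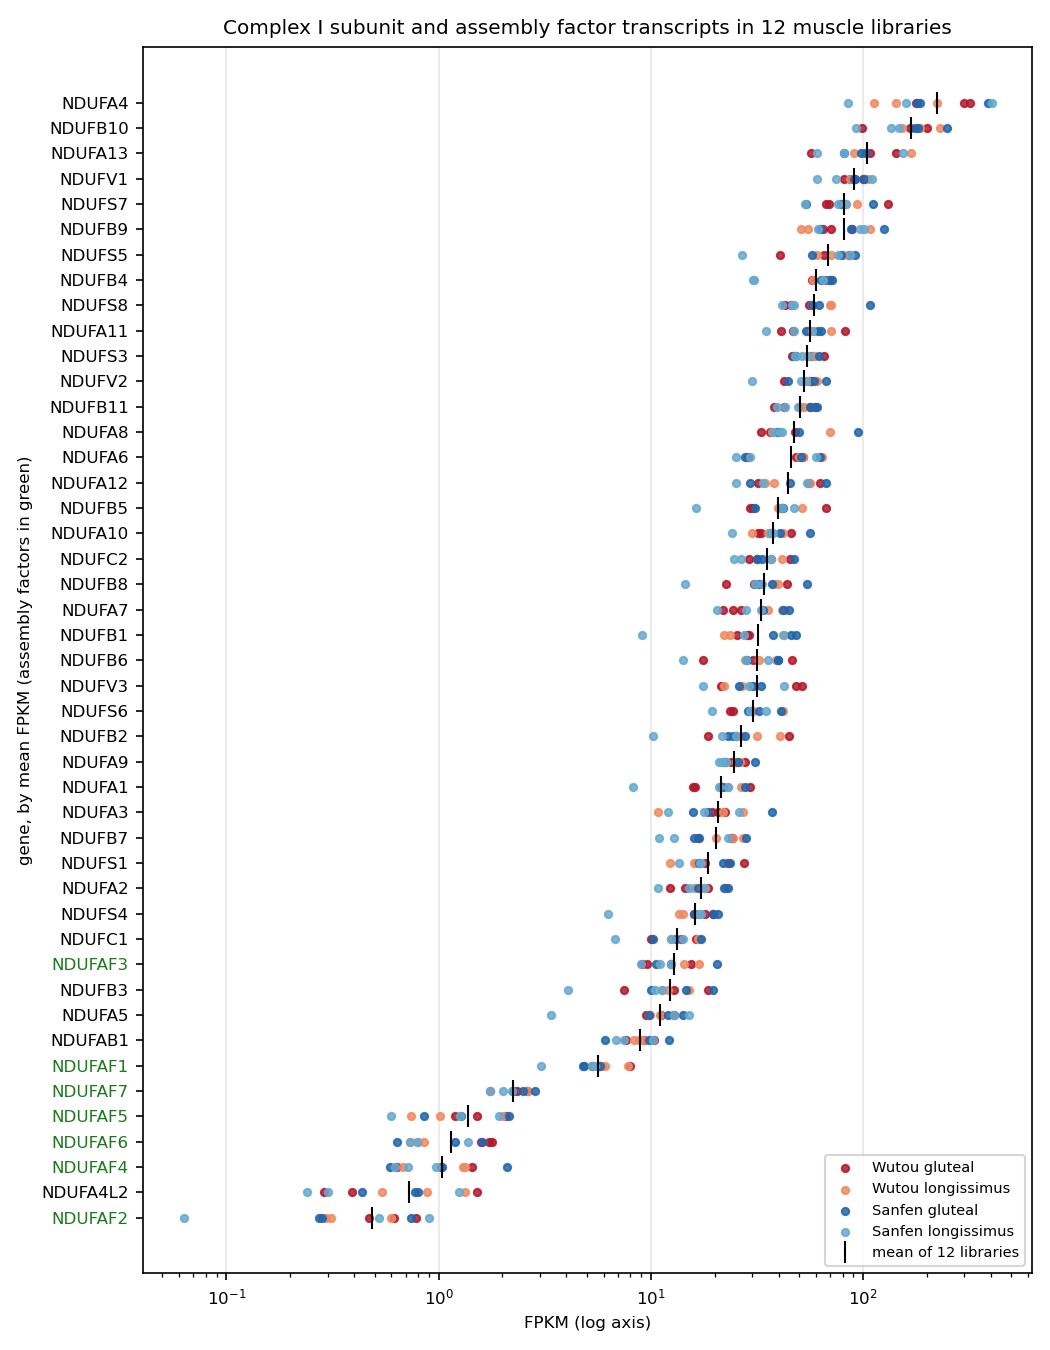
FPKM of 45 of the 46 complex I genes (vertical axis, in the order of their means) in each of 12 libraries on a logarithmic horizontal axis. Points are libraries, coloured by group, and black ticks are means over 12 libraries. Assembly factors (green names) fill the low end, from NDUFAF2 at 0.488 to NDUFAF3 at 12.8 FPKM, while most subunits lie above NDUFAF3.

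NDUFA4 had the highest level. It is named as a complex I subunit and in mammals is now assigned to cytochrome c oxidase, complex IV. Its FPKM was 178, 320 and 298 in Wutou gluteal, 224, 143 and 113 in Wutou longissimus, 386, 180 and 185 in Sanfen gluteal and 159, 85.1 and 403 in Sanfen longissimus. The highest and the lowest library both came from Sanfen longissimus, the 4 groups overlapped, and the coefficient of variation was 47.1%.

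NDUFB10, a supernumerary subunit of the membrane arm, was second. It measured 99.2, 167 and 201 FPKM in Wutou gluteal, 186, 229 and 152 in Wutou longissimus, 248, 176 and 182 in Sanfen gluteal and 136, 93.0 and 148 in Sanfen longissimus. All 3 Sanfen gluteal libraries were above all 3 Sanfen longissimus libraries.

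NDUFA13 (also called GRIM-19), a supernumerary subunit, had a mean of 104 FPKM. Low coefficients of variation were found for NDUFS3, a core subunit of the matrix arm, at 11.6%, and for NDUFA9, a supernumerary subunit near the quinone site, at 11.8%.

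The 7 core subunits encoded in the nucleus had a median of the mean of 58.8 FPKM and a median coefficient of variation of 18.5%. Among them are NDUFV1, which binds NADH and the flavin, and NDUFS1 and NDUFS8, which carry iron-sulfur clusters. Only NDUFS1, with a mean of 18.6 FPKM, was below 20. The 9 other matrix arm subunits had a median of 30.4 FPKM and the 20 membrane arm subunits, which sit in or against the inner membrane, a median of 36.3 FPKM. Over all 39 subunits the median coefficient of variation was 27.3%, over assembly factors 38.2%, and over the 2529 loci with a mean of at least 5 FPKM 23.5%.

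At the low end of the subunits was NDUFA4L2, a relative of NDUFA4 known in human and mouse cells as a gene switched on in low oxygen. It measured 0.288, 1.52 and 0.389 FPKM in Wutou gluteal, 0.539, 1.33 and 0.885 in Wutou longissimus, 0.771, 0.799 and 0.438 in Sanfen gluteal and 0.3, 0.239 and 1.25 in Sanfen longissimus. The groups overlapped, and 3 libraries were above 1 FPKM.

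Next came NDUFAB1, the mitochondrial acyl carrier protein, which also serves in fatty acid synthesis. Its FPKM was 7.67, 9.29 and 10.3 in Wutou gluteal, 8.76, 9.23 and 8.35 in Wutou longissimus, 12.2, 9.84 and 6.11 in Sanfen gluteal and 10.2, 6.85 and 7.47 in Sanfen longissimus. The Sanfen gluteal group held both the highest and the lowest library.

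NDUFA5, a supernumerary subunit of the matrix arm, measured 11.2, 9.53 and 12.8 FPKM in Wutou gluteal, 11, 9.82 and 9.95 in Wutou longissimus, 14.1, 12.1 and 9.82 in Sanfen gluteal and 12.9, 3.40 and 15.2 in Sanfen longissimus. The second Sanfen longissimus library was the lowest of the 12 and the third was the highest.

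Among assembly factors, NDUFAF3 acts early, on the quinone module, together with NDUFAF4. NDUFAF3 measured 9.04, 9.55 and 15.5 FPKM in Wutou gluteal, 14.4, 16.9 and 12.5 in Wutou longissimus, 20.5, 12.5 and 10.6 in Sanfen gluteal and 11.1, 12.4 and 8.96 in Sanfen longissimus. NDUFAF4 measured 1.44, 0.635 and 1.03 FPKM in Wutou gluteal, 0.681, 1.30 and 1.33 in Wutou longissimus, 1.04, 2.11 and 0.591 in Sanfen gluteal and 0.977, 0.721 and 0.622 in Sanfen longissimus. NDUFAF3 was above its partner NDUFAF4 in every library, and the groups of NDUFAF4 overlapped throughout.

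NDUFAF1, the founding member of a membrane-bound assembly complex that also holds ECSIT and ACAD9, was the second most abundant factor. It measured 5.29, 7.97 and 5.67 FPKM in Wutou gluteal, 7.81, 5.86 and 6.06 in Wutou longissimus, 4.77, 5.76 and 4.84 in Sanfen gluteal and 5.43, 3.03 and 5.29 in Sanfen longissimus. All 3 Wutou longissimus libraries were above all 3 Sanfen longissimus libraries. Of the 45 pairs of neighbours in the order of mean levels, the ranges over 12 libraries overlapped in 44, and the exception was NDUFAF1 over NDUFAF7.

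NDUFAF7 and NDUFAF5 are enzymes that modify arginines of core subunits. NDUFAF7 measured 2.62, 2.25 and 2.35 FPKM in Wutou gluteal, 2.63, 1.75 and 1.75 in Wutou longissimus, 2.25, 2.51 and 2.85 in Sanfen gluteal and 2.02, 1.74 and 2.21 in Sanfen longissimus. NDUFAF5 measured 2.07, 1.19 and 1.52 FPKM in Wutou gluteal, 2.01, 0.738 and 1.01 in Wutou longissimus, 2.14, 0.855 and 1.28 in Sanfen gluteal and 1.92, 0.596 and 1.26 in Sanfen longissimus. For NDUFAF5, replicate 1 was the highest and replicate 2 the lowest library in each of the 4 groups. For NDUFAF7, the Sanfen gluteal libraries were all above the Sanfen longissimus libraries.

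NDUFAF6, an early assembly factor related to phytoene synthases, was the one factor whose Wutou muscles did not overlap in the row used. It measured 1.78, 1.59 and 1.73 FPKM in Wutou gluteal, 0.855, 0.736 and 0.803 in Wutou longissimus, 1.60, 1.2 and 0.634 in Sanfen gluteal and 1.38, 0.732 and 0.789 in Sanfen longissimus. Here and below, values and differences of NDUFAF6 are those of the highest of its 4 rows. Whether its other rows go the same way is not shown. NDUFAF2, a late factor related to the subunit NDUFA12, measured 0.619, 0.779 and 0.471 FPKM in Wutou gluteal, 0.311, 0.296 and 0.597 in Wutou longissimus, 0.740, 0.274 and 0.281 in Sanfen gluteal and 0.900, 0.0631 and 0.525 in Sanfen longissimus. No library reached 1 FPKM for NDUFAF2 in the higher of its 2 rows.

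Of the 12 libraries, 2 stood apart in these genes, and every Sanfen comparison rests on one or both of them. The second Sanfen longissimus library was the lowest of all 12 for 25 of 39 subunits, while 11.4% of all loci tested were lowest there. Its subunits averaged -0.69 relative to the mean of 12 libraries on the log2(FPKM + 1) scale, with 37 of 39 below 0, whereas all loci tested averaged 0.04. The first Sanfen gluteal library was the highest for 18 of 39 subunits (17.8% of all loci tested were highest there), with a subunit average of 0.41 against 0.14 for all loci. In the other 10 libraries the subunit average was between -0.17 and 0.23.

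In the second Sanfen longissimus library core and other subunits differed. Its 7 core subunits averaged -0.14, while the 29 other subunits of the matrix and membrane arms averaged -0.82, with 0 of 29 above 0. Of the core subunits 2 were above 0 and 5 below 0 there. NDUFV1, which binds NADH, had its highest value of the 12 libraries there, at 110 FPKM. NDUFV2, another core subunit, had its lowest there, at 30.1 FPKM. Core subunits made up 39.4% of the summed FPKM of both arms in that library and 25.1% to 31.5% in the other 11. The core average was no lower there than in the first and the third Sanfen longissimus libraries, at -0.19 and -0.23, whose other arm subunits averaged 0.05 and -0.01. Assembly factors averaged -0.33, with 0 of 6 above 0, which was also so in the third Sanfen longissimus library, at -0.18. The 39 genes of respiratory complexes II to V averaged -0.61 in the second Sanfen longissimus library, with 4 above 0 and 35 below 0. They were divided there too, so unequal levels within a complex were not particular to complex I. SDHA, CYC1 and ATP5A1, at 96.4, 167 and 360 FPKM, lay within the range of the other libraries. COX6C, UQCRH and ATP5E had their lowest values there, at 17.6, 20 and 10.8 FPKM. In the first Sanfen gluteal library the core averaged 0.33, the other arm subunits 0.42 and complexes II to V 0.38.

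Summed fibre markers also set these libraries apart. The 9 fast fibre genes summed to 6624 FPKM in the second Sanfen longissimus library and 9618 in the first Sanfen gluteal library, against 13073 to 20169 in the other 10. The 8 slow fibre genes summed to 5518 and 7439 FPKM in these 2 libraries, against 2490 to 4622 in the other 10. Both libraries thus had low fast and high slow fibre sums, while one was the lowest and the other the highest in subunit transcripts. Gene by gene the sums were followed in part. TNNI2, TNNC2, MYL1 and ATP2A1 were lower in both than in the other 10, and TNNI1, TNNT1, MYL2, MYL3 and ATP2A2 were higher. The remaining fibre genes did not set both apart in this way. MYH2 measured 133 FPKM in the second Sanfen longissimus library and 38.4 in the first Sanfen gluteal library, and CSRP3 772 and 388. Adipocyte markers were divided in these libraries. Their sum was highest in the first Sanfen gluteal library, at 38.3 FPKM, of which LPL held 27.8, while ADIPOQ measured 2.65 there. In the second Sanfen longissimus library ADIPOQ, PLIN1, CIDEC and LEP had their highest values, at 5.2, 3.76, 1.45 and 0.424 FPKM. LPL, at 9.29, and FABP4, at 3.8, did not. FABP4 was lower only in the second Wutou longissimus library, at 3.56. The part of fibre makeup and of fat cells in the results was not tested.

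**Figure D2:**
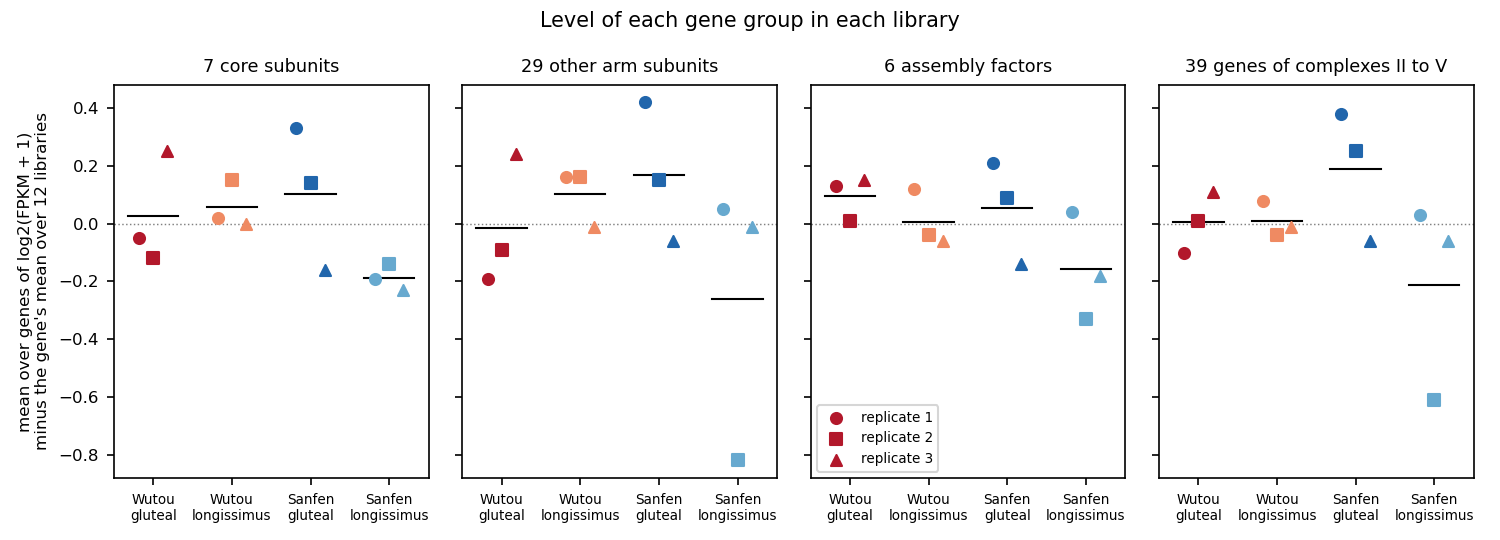
Mean over genes of log2(FPKM + 1) minus each gene's mean over 12 libraries (vertical axis) for 7 core subunits, 29 other arm subunits, 6 assembly factors and 39 genes of complexes II to V, by group (horizontal axis). Each symbol is 1 library and each line a group mean. The second Sanfen longissimus library lies at -0.82 for the other arm subunits and at -0.14 for the core.

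Gluteal muscle was compared with longissimus within Sanfen to ask how the muscles differ. All 39 subunits had a difference above 0 (higher in gluteal), with a median of 0.37 and a range of 0.02 to 0.95, while 67.6% of all loci were above 0 with a median of 0.08. The median was 0.24 over the 7 core subunits and 0.40 over the 29 other arm subunits. The 6 assembly factors were also above 0, with a median of 0.20. No complex I gene passed the test (limma, 0 of 45, smallest adjusted p = 1), where 0.0242% of all loci did (3 loci, or 1 with the replicate number as a block). At an unadjusted p under 0.05 there were 4 subunits, all above 0, and 0 assembly factors, against 3.57% of all loci.

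The size of these differences depended on which libraries were kept, among them the second Sanfen longissimus library. That library was singled out for its low subunit values, so a smaller difference without it follows from the choice. After median-of-ratios rescaling 35 of 39 subunits were above 0, with a median of 0.25. Without that library, 31 of 39 subunits were above 0 with a median of 0.16, beside a median of 0.11 for all loci. Without the first Sanfen gluteal library 34 of 39 were above 0, with a median of 0.22. Other omissions raised the median, to 0.51 and 0.52 without the first or the third Sanfen longissimus library. It was 0.50 without the third Sanfen gluteal library. Without both the second Sanfen longissimus and the first Sanfen gluteal library, 23 of 39 were above 0. The median was then 0.05, beside 0.07 for all loci, in a setting chosen after the data had been seen. The core subunits had medians of 0.29 without the second Sanfen longissimus library and 0.14 without both, with 7 and 6 of 7 above 0. Fibre markers were divided in Sanfen muscles, with 6 of 9 fast and 5 of 8 slow fibre genes above 0 and medians of 0.12 and 0.27.

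NDUFB4, a supernumerary subunit of the membrane arm, had the smallest p in Sanfen muscles. It measured 69.4, 71.3 and 63.1 FPKM in Sanfen gluteal, against 64.7, 30.3 and 30.5 in Sanfen longissimus. The groups overlapped through the first longissimus library, and the other 2 longissimus libraries were the lowest of all 12. The difference was 0.78 (SE 0.27, adjusted p = 1 by limma). In Wutou its FPKM was 57.4, 70.8 and 66.3 in gluteal and 70.8, 64.1 and 58.3 in longissimus.

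NDUFS8, a core subunit with iron-sulfur clusters, measured 108, 62.2 and 57.3 FPKM in Sanfen gluteal, against 41.4, 46.2 and 47.3 in Sanfen longissimus. These groups did not overlap, and the difference was 0.69 (SE 0.25, adjusted p = 1 by limma). Without the first gluteal library it was 0.40 (SE 0.22, adjusted p = 1 by limma).

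NDUFA7, a supernumerary subunit of the matrix arm, measured 41.9, 44.8 and 33.9 FPKM in Sanfen gluteal, against 33.1, 20.6 and 28.2 in Sanfen longissimus. The groups did not overlap, although the lowest gluteal and the highest longissimus library were close. The difference was 0.56 (SE 0.21, adjusted p = 1 by limma). NDUFB10, NDUFB11 (both of the membrane arm) and NDUFAF7 were the other genes with gluteal libraries all above longissimus libraries, which makes 5 of 45, against 6.27% of all loci. None had groups apart the other way, against 1.27% of all loci.

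In Wutou the same comparison of muscles was made. Of 39 subunits, 12 had a difference above 0, with a median of -0.14 and a range of -0.70 to 0.74, while 58.6% of all loci were above 0 with a median of 0.05. After median-of-ratios rescaling the subunit median was -0.22, with 8 of 39 above 0, and after quantile normalization it was -0.04, with 17 of 39 above 0. Without the first or the second gluteal library it was -0.02, with 18 and 19 of 39 above 0, without the third -0.31, and without the first or the second longissimus library -0.07 and -0.08. As deposited, the median was -0.17 over the 20 membrane arm subunits and -0.05 over the 16 matrix arm subunits. Of the slow fibre genes 7 of 8 were below 0, with a median of -0.18, and of the fast fibre genes 6 of 9, with a median of -0.19. Assembly factors were divided, with 3 of 6 above 0 and a median of 0.06. Here too 0 of 45 complex I genes passed (limma, smallest adjusted p = 0.87), and 0% of all loci did. At an unadjusted p under 0.05 there were 2 subunits, 1 in each direction, and 1 assembly factor, against 5.68% of all loci.

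NDUFA7 had the smallest p, with 26.5, 24.5 and 21.8 FPKM in Wutou gluteal, against 41.3, 43.0 and 35.5 in Wutou longissimus. All 3 gluteal libraries were lower, and the difference was -0.70 (SE 0.21, adjusted p = 0.87 by limma). NDUFS8 was also lower in every gluteal library, with 42.7, 45.7 and 55.6 FPKM in Wutou gluteal, against 69.8, 70.9 and 57.6 in Wutou longissimus. These 2 of 45 were the genes with gluteal libraries all below longissimus libraries, against 4.18% of all loci.

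NDUFAF6 and NDUFS1 were the 2 of 45 genes with gluteal libraries all above longissimus libraries, against 8.70% of all loci. NDUFAF6 averaged 1.70 ± 0.1 FPKM in Wutou gluteal and 0.798 ± 0.0594 in Wutou longissimus (SD, n = 3 each), a difference of 0.59 (SE 0.18, adjusted p = 0.87 by limma), or 1 with a pseudocount of 0.1. NDUFS1, the largest subunit of the matrix arm and an iron-sulfur protein, measured 27.5, 17.9 and 23.0 FPKM in Wutou gluteal, against 12.3, 15.9 and 16.4 in Wutou longissimus. Its difference was 0.58 (SE 0.21, adjusted p = 0.87 by limma) and it was the 1 of 7 core subunits with a difference above 0.

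**Figure D3:**
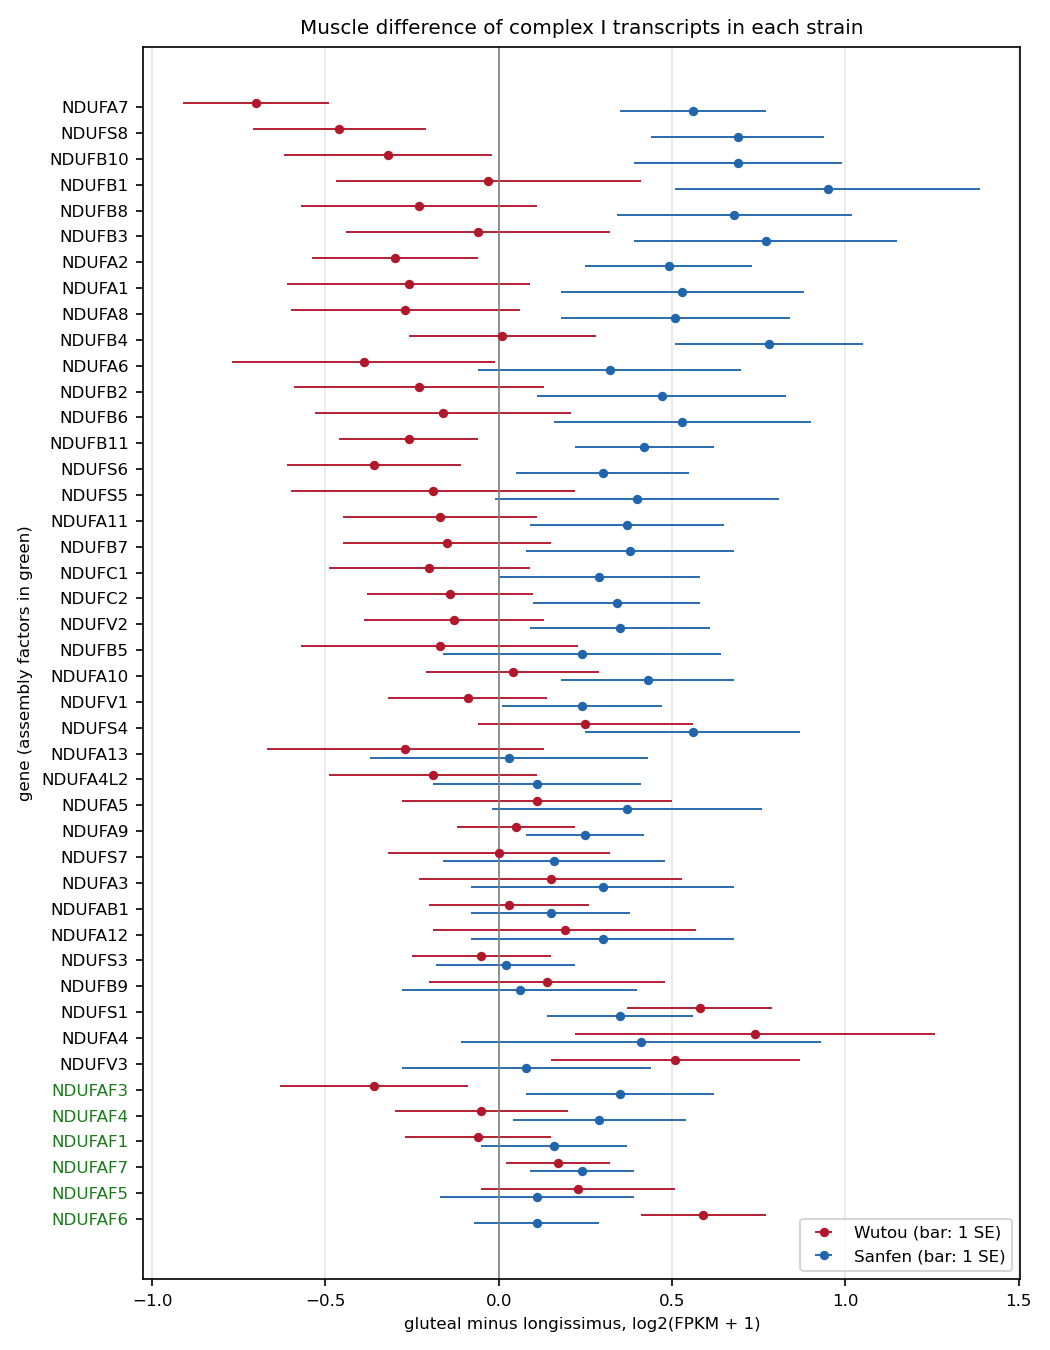
Gluteal minus longissimus difference on the log2(FPKM + 1) scale (horizontal axis) for 44 of the 45 genes tested (vertical axis), in Wutou (red) and Sanfen (blue), with bars of 1 SE. Sanfen differences of subunits run from 0.02 to 0.95 and Wutou differences from -0.70 to 0.74, and none passed the test.

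Averaged over strains, 33 of 39 subunits had a gluteal minus longissimus difference above 0, with a median of 0.12, and 5 of 6 assembly factors did, with a median of 0.14. Of all loci 65.9% were above 0, with a median of 0.07. After median-of-ratios rescaling the subunit median was 0.01, with 25 of 39 above 0. It was 0.04 without the second Sanfen longissimus library, 0.05 without the first Sanfen gluteal or the third Wutou gluteal library, 0.20 without the third Sanfen gluteal library, and -0.04, with 16 of 39 above 0, without both outlying Sanfen libraries. No complex I gene passed (limma, 0 of 45), and 0% of all loci did. NDUFS1 at 0.47 (SE 0.15, adjusted p = 0.745) and NDUFAF6 at 0.35 (SE 0.13, adjusted p = 0.745) were the genes with an unadjusted p under 0.05, against 6.56% of all loci. NDUFB4 followed at 0.39 (SE 0.19, adjusted p = 0.772). In Sanfen, NDUFS1 measured 23.6, 21.8 and 16.8 FPKM in gluteal, against 17.0, 17.2 and 13.6 in longissimus, so that the groups overlapped at 1 library.

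The interaction, the Wutou muscle difference minus the Sanfen muscle difference, tests whether the muscles differ by strain. It was below 0 for 35 of 39 subunits, with a median of -0.48, while 45.4% of all loci were above 0 with a median of -0.03. The median was -0.27 over core subunits and -0.59 over the other arm subunits. Assembly factors had a median of -0.14, with 2 of 6 above 0. No complex I gene passed (limma, 0 of 45, smallest adjusted p = 1), where 0.00806% of all loci did. At an unadjusted p under 0.05 there were 5 subunits, all below 0, and 0 assembly factors, against 2.60% of all loci. After quantile normalization the subunit median was -0.29, with 9 of 39 above 0. It was also -0.29 without the second Sanfen longissimus library, -0.31 without the first Sanfen gluteal library and -0.19 without both, beside -0.04 for all loci. Of the slow fibre genes 7 of 8 were below 0 in the interaction, with a median of -0.66, and of the fast fibre genes 7 of 9, with a median of -0.31.

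NDUFA7 had the smallest interaction p, with an estimate of -1.26 (SE 0.30, unadjusted p = 0.00135, adjusted p = 1 by limma). All 6 libraries of Wutou longissimus and Sanfen gluteal, at 33.9 to 44.8 FPKM, were above all 6 of Wutou gluteal and Sanfen longissimus, at 20.6 to 33.1. NDUFS8 was arranged in the same way, with 57.3 to 108 FPKM against 41.4 to 55.6, and its estimate was -1.14 (SE 0.35, adjusted p = 1 by limma). This arrangement was named after the values had been seen. The share of all loci arranged so was not counted, so how unusual it is cannot be said. Without both outlying libraries these estimates were -1.04 (SE 0.28) for NDUFA7 and -0.88 (SE 0.28) for NDUFS8, each with an adjusted p of 0.875 by limma.

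NDUFB11 followed at -0.68 (SE 0.28, adjusted p = 1 by limma), or -0.41 after quantile normalization. It measured 37.9, 42.3 and 56.4 FPKM in Wutou gluteal, 50.3, 59.6 and 52.8 in Wutou longissimus, 60.7, 56.0 and 59.2 in Sanfen gluteal and 42.9, 39.2 and 49.2 in Sanfen longissimus. The Wutou muscles overlapped through the third gluteal library, and the Sanfen muscles did not overlap.

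**Figure D4:**
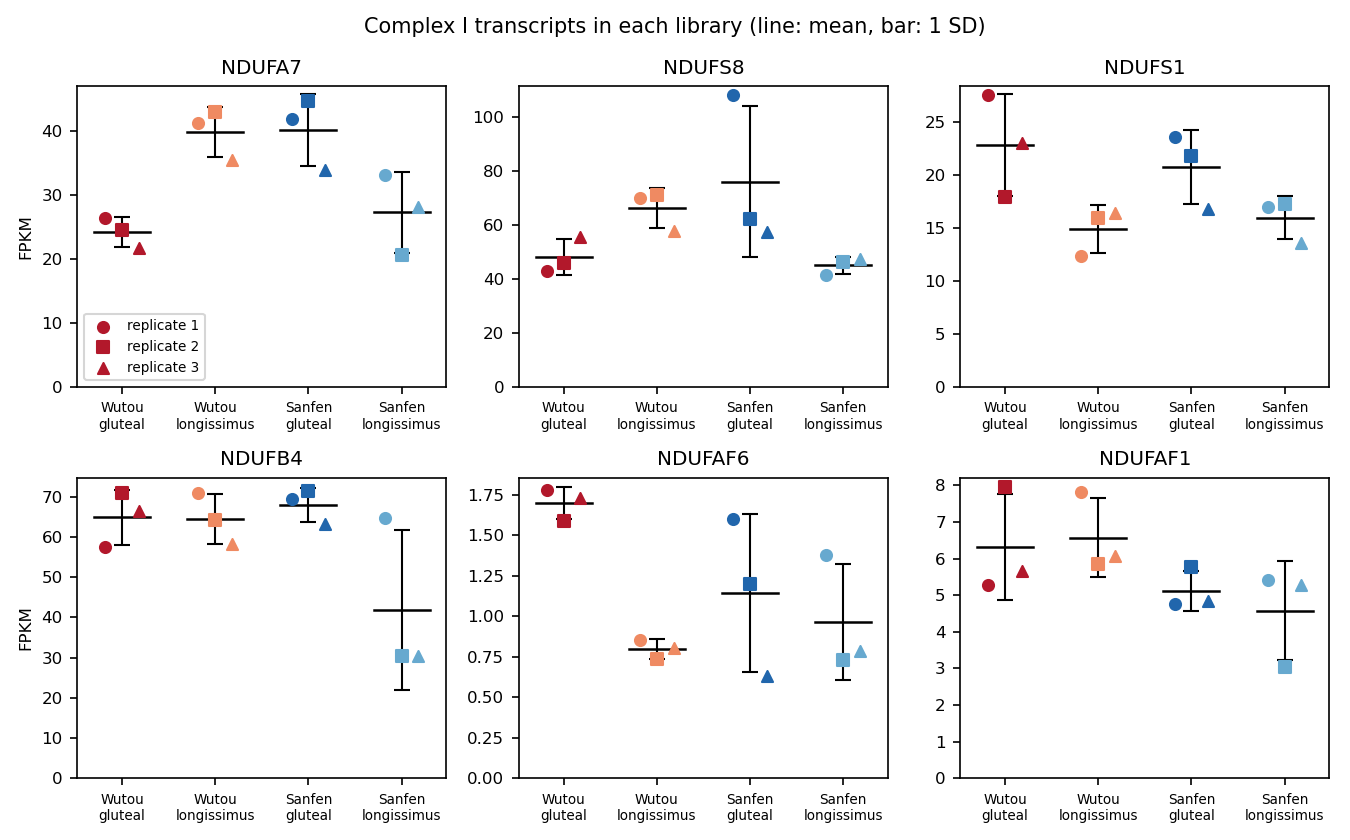
FPKM (vertical axes from 0) of NDUFA7, NDUFS8, NDUFS1, NDUFB4, NDUFAF6 and NDUFAF1 in each library, by group (horizontal axis), with group means and bars of 1 SD (n = 3). For NDUFA7 the Wutou longissimus and Sanfen gluteal libraries lie at 33.9 to 44.8 FPKM and the other 6 at 20.6 to 33.1.

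Wutou was compared with Sanfen within longissimus to ask how the strains differ. Of 39 subunits, 35 had a difference above 0 (higher in Wutou), with a median of 0.31 and a range of -0.32 to 0.83, while 40.7% of all loci were above 0 with a median of -0.06. The median was 0.41 over membrane arm subunits and 0.25 over core subunits. Of 6 assembly factors, 4 were above 0, with a median of 0.12. Of 45 complex I genes 0 passed (limma, smallest adjusted p = 0.854), where 0.0161% of all loci did. At an unadjusted p under 0.05 there were 3 subunits, all above 0, and 0 assembly factors, against 5.52% of all loci. Without the second Sanfen longissimus library 27 of 39 subunits were above 0, with a median of 0.16, beside -0.04 for all loci. Without the first or the third Sanfen longissimus library the median was 0.47 and 0.48. Fibre and other marker genes, of which 0 passed, are given beside these values, and their part was not tested. Of the fast fibre genes 8 of 9 were above 0, with a median of 0.60. In 3 of 9 all Wutou longissimus libraries were above all Sanfen longissimus libraries, against 3.88% of all loci. Of the slow fibre genes 5 of 8 were below 0, with a median of -0.27. All 5 adipocyte markers tested were below 0, with a median of -0.45, and 5 of 6 fibroblast and tendon markers, with a median of -0.28.

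NDUFA7 (0.55, SE 0.21), NDUFB4 (0.70, SE 0.27) and NDUFB2 (0.83, SE 0.36) had the smallest p in longissimus, each with an adjusted p of 0.854 by limma. Without the first Sanfen longissimus library the difference of NDUFB4 was 1.05. NDUFB2, a small supernumerary subunit of the membrane arm, measured 40.7, 26.7 and 31.6 FPKM in Wutou longissimus, against 25.3, 10.2 and 21.7 in Sanfen longissimus. These groups did not overlap. In gluteal muscle its FPKM was 25.1, 18.6 and 44.6 in Wutou and 23.2, 27.8 and 24.4 in Sanfen, where the groups overlapped. Without the second Sanfen longissimus library the longissimus difference of NDUFB2 was 0.46 (SE 0.32, adjusted p = 0.784 by limma).

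In 9 of 45 complex I genes all Wutou longissimus libraries were above all Sanfen longissimus libraries, against 3.88% of all loci, and 0 had groups apart the other way, against 7.92%. The 7 subunits included NDUFA7, NDUFB2, NDUFS8, NDUFB10, NDUFB11 and NDUFA9, and the 2 assembly factors were NDUFAF1 and NDUFAF3. Their differences were between 0.18 for NDUFA9 and 0.83 for NDUFB2, and none passed the test.

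Within gluteal muscle, Wutou minus Sanfen differences were above 0 for 10 of 39 subunits, with a median of -0.09, while 34.2% of all loci were above 0 with a median of -0.09. The sign of the subunit median depended on the scaling: it was 0.02 after median-of-ratios rescaling and 0.04 after quantile normalization, with 22 and 24 of 39 above 0. Without the first Sanfen gluteal library it was 0.01, with 23 of 39 above 0, without the third Sanfen gluteal library -0.20, and without the first or the third Wutou gluteal library -0.04 and -0.19. Of the slow fibre genes 7 of 8 were below 0, with a median of -0.91. In 6 of 8 all Wutou gluteal libraries were below all Sanfen gluteal libraries, against 8.68% of all loci. The fast fibre genes had a median of 0.32, with 6 of 9 above 0. Of 6 assembly factors, 3 were above 0, with a median of 0.03. No complex I gene passed (limma, 0 of 45, smallest adjusted p = 0.963), where 0.00806% of all loci did. At an unadjusted p under 0.05 there were 2 subunits, both below 0, against 4.86% of all loci.

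These were NDUFA7, at -0.70 (SE 0.21), and NDUFS8, at -0.60 (SE 0.25), each with an adjusted p of 0.963 by limma. Without the first Sanfen gluteal library they were -0.67 (SE 0.25) and -0.32 (SE 0.22). NDUFAF6 followed at 0.36 (SE 0.18, adjusted p = 0.963 by limma), with groups that overlapped. Without the third Sanfen gluteal library it was 0.17, and with a pseudocount of 0.1 it was 0.61. NDUFA7, NDUFS8 and NDUFB1 were the 3 of 45 genes with Wutou gluteal libraries all below Sanfen gluteal libraries, against 8.68% of all loci. None had groups apart the other way, against 2.19% of all loci.

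Averaged over muscles, 28 of 39 subunits had a Wutou minus Sanfen difference above 0, with a median of 0.09, while 35.3% of all loci were above 0 with a median of -0.07. After median-of-ratios rescaling the median was 0.19, with 36 of 39 above 0. It was -0.01, with 18 of 39 above 0, without the second Sanfen longissimus library, 0.01 without the third Wutou gluteal, 0.02 without the third Sanfen gluteal, 0.05 without the second Wutou longissimus, and 0.14 without the third Sanfen longissimus or the first Sanfen gluteal library. The assembly factors had a median of 0.06, with 5 of 6 above 0. No complex I gene passed (limma, 0 of 45), and 0% of all loci did. At an unadjusted p under 0.05 there were 0 complex I genes, against 5.97% of all loci.

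NDUFAF1 had the smallest p of this comparison, at 0.35 (SE 0.17, adjusted p = 0.821 by limma), or 0.23 (SE 0.15) without the second Sanfen longissimus library. NDUFB7, a supernumerary subunit on the intermembrane face of the membrane arm, followed at 0.38 (SE 0.22, adjusted p = 0.855 by limma). It measured 16.6, 24.0 and 24.1 FPKM in Wutou gluteal, 20.2, 27.1 and 24.4 in Wutou longissimus, 28.1, 16.9 and 15.9 in Sanfen gluteal and 23.0, 12.9 and 10.9 in Sanfen longissimus. The strains overlapped in both muscles, in longissimus through the first Sanfen library alone. NDUFB2 came next, at 0.48 (SE 0.28, adjusted p = 0.855 by limma). It was 0.29 without the second Sanfen longissimus library and 0.31 without the third Wutou gluteal library.

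Other genes of respiration and of complex I assembly were set beside these values. Of 56 genes listed for complexes II to V, 39 were measured and tested, and 0 passed in any of the 7 comparisons. Their median difference was 0.31 for gluteal against longissimus in Sanfen, with 37 of 39 above 0, and 0.01 in Wutou, with 20 of 39 above 0. It was 0.22 for Wutou against Sanfen in longissimus, with 32 of 39 above 0, and -0.14 in gluteal, with 10 of 39 above 0. COX7C, a small subunit of cytochrome c oxidase, had the smallest p of them, with 198, 207 and 158 FPKM in Sanfen gluteal, against 83.5, 52.1 and 78.0 in Sanfen longissimus. Its difference was 1.40 (SE 0.23, adjusted p = 0.165 by limma), and that of COX8A, of the same enzyme, was 1.25 (SE 0.38, adjusted p = 1 by limma). COX8A was low, with 3.54, 4.77 and 2.95 FPKM in Sanfen gluteal, against 1.8, 0.795 and 0.537 in Sanfen longissimus.

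Of the assembly genes with other names, 9 were measured and 6 were tested, and 0 passed in any comparison. Their medians were 0.09 for gluteal against longissimus in Sanfen, 0.11 in Wutou, -0.01 for Wutou against Sanfen in longissimus and -0.05 in gluteal. In Sanfen muscles TMEM70, which acts in the assembly of complexes I and V, had a difference of 0.50 (SE 0.29, adjusted p = 1 by limma). ECSIT, a partner of NDUFAF1, had one of 0.27 (SE 0.23, adjusted p = 1 by limma). ECSIT averaged 21.7 ± 1.92 FPKM in Wutou gluteal, 23.9 ± 5.40 in Wutou longissimus, 26.2 ± 0.825 in Sanfen gluteal and 22.1 ± 6.06 in Sanfen longissimus (SD, n = 3 each), and so was more abundant than each NDUFAF factor in every group.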

How the data were processed

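The deposited values are FPKM per locus in 12 libraries, per the file headers. Per the labels' protocols, tissue was frozen, RNA was taken up in Trizol and Illumina libraries were prepared. The submitters' processing notes name cutadapt, Bowtie2 and TopHat2. The genome build, strandedness and the treatment of reads shared by similar or overlapping genes are not given in the sources used here.

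Groups follow the strain and tissue labels. Loci with at least 1 FPKM in at least 3 libraries were tested with limma 3.58.1 (R 4.3.3) on log2(FPKM + 1), in 1 model over 4 groups (8 residual degrees of freedom) with trended moderated variances, two-sided. The strain comparison averaged over muscles took the replicate number within strain as a random block (statmod 1.5.0, consensus correlation 0.188). The model was tested on simulated data. Deviations from group means of libraries with the same number correlated at 0.246, 0.110 and 0.158 in Sanfen, each above the pairing limit of 0.1, and at 0.182, 0.165 and 0.0711 in Wutou, so that the fixed block is printed beside the Sanfen muscle comparison only. This comes from the values, not the labels. The random block of the strain average covers both strains, since libraries with the same number may share a donkey.

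Members and gene lists were chosen with earlier results of these data known. Given in every library are the 3 highest and 3 lowest subunits, the assembly factors and the 3 members with the smallest p per comparison; from other lists, up to 2 genes by p. The values of 1 member are not reported here, and it is left out of the plots but not of counts and medians. Genes whose groups do not overlap were named after their values were seen. Alternatives were another pseudocount, filters, scalings, blocks, only the libraries compared, summed rows and left-out libraries. Python 3.11.15, pandas 2.3.3 and matplotlib 3.10.9 made tables and figures.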

Additional observations from a re-analysis of the deposited data

How the results depend on the processing

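In each of the 7 comparisons 0 complex I genes were called under every setting run, so the settings moved counts of loci and medians. Sanfen muscles had 5 loci called with a pseudocount of 0.1 and with no filter, 1 with a filter at 5 FPKM, and 1 with the replicate block. Wutou muscles had 1 with only the libraries compared and 2 without both outlying Sanfen libraries, and the muscle average had 1 with no filter and 1 without both. The strains in longissimus had 6 with the pseudocount of 0.1, 4 with no filter, 0 with the filter at 5 FPKM and 7 with only the libraries compared. In gluteal they had 0 with the pseudocount, the filter at 5 FPKM, median-of-ratios rescaling and quantile normalization, 2 with only the libraries compared and 3 without both libraries, and the strain average had 1 with no filter and 1 without both. The interaction had 2 with no filter, 0 with the filter at 5 FPKM, 2 with quantile normalization and 4 without both libraries. Without both libraries the subunit median was 0.05 for Sanfen muscles and -0.19 for the interaction. With the filter at 5 FPKM, which leaves fewer assembly factors, their median was -0.21 for Wutou muscles, 0.43 for the strains in longissimus and -0.47 for the interaction. The ratio of subunit to assembly factor levels was 15.7 with summed rows. In all of these the cause was not tested beyond the construction named.

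Leaving out each library in turn gave 0 to 5 loci called for Sanfen muscles, 0 to 2 for Wutou muscles, 0 to 4 for the muscle average, 0 to 6 for the strains in longissimus, 0 to 3 in gluteal, 0 to 1 for the strain average and 1 to 5 for the interaction. The subunit median was then 0.16 to 0.52, -0.31 to -0.02, 0.04 to 0.20, 0.16 to 0.48, -0.20 to 0.01, -0.01 to 0.14 and -0.66 to -0.29 in the same order. The assembly factor median was 0.11 to 0.30, 0.04 to 0.18, 0.08 to 0.21, 0.08 to 0.26, -0.06 to 0.07, 0.02 to 0.16 and -0.21 to 0.00. The replicate block changed no other count, and the fit of the strain average without the block also had 0 loci called. Unknown depth limits the low assembly factors most, since no counting error can be given for them.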

Other observations

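NDUFAF8, which in human cells binds NDUFAF5, appears in the table only under a LOC identifier that RefSeq (assembly EquAss-T2T_v2) pairs with that symbol, and so fell outside the rule on names. It measured 1.25, 5.62 and 0.925 FPKM in Wutou gluteal, 0.888, 1.71 and 4.32 in Wutou longissimus, 1.09, 1.27 and 1.23 in Sanfen gluteal and 2.85, 1.51 and 0.543 in Sanfen longissimus, with overlapping groups.

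All 39 subunits, and 0 of 7 assembly factors, carry the KEGG term for oxidative phosphorylation in the deposited table. All 46 genes were found in the RefSeq table of EquAss-T2T_v2, on 23 chromosomes. No pair of them lay side by side among protein-coding genes, and the nearest pair, NDUFV1 and NDUFS8, had 6 protein-coding genes between them.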
